A study of Mus musculus with 2 samples.

Results

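The genes of 3 growth factor families, the fibroblast growth factors (FGF), the insulin-like growth factors (IGF) and the platelet-derived growth factors (PDGF), were described with their receptors and binding proteins in mouse mammary basal cells grown with or without TNF-α. The genes were chosen by symbol alone, as the numbered Fgf genes, Fgfr1 to Fgfr4 and Fgfrl1, the Fgfbp genes, Igf1, Igf2 and their receptors, the Igfbp genes, Pdgfa to Pdgfd, and Pdgfra, Pdgfrb and Pdgfrl. The rule found 50 of the 49492 genes in the count table, and 3 of these 50, Fgfr1op, Fgfr1op2 and Fgfr3-ps, were matched by the start of their symbol and encode neither a ligand nor a receptor. Basal cells, the outer contractile layer of the mammary epithelium that also holds its stem cells, were sorted by flow cytometry as lineage-negative CD24+ CD29hi cells from adult female mice of WT genotype, embedded in matrix gel and grown in 3D. The control library came from cells with no added cytokine and the TNF-α library from cells given recombinant mouse TNF-α at 10 ng/mL, each harvested on day 10. The medium of both held EGF and a supplement of insulin, transferrin and selenium. TNF-α is an inflammatory cytokine made largely by macrophages, and the comparison addresses which genes change with it in colonies grown from these primary cells. There was 1 library a condition, so no difference between conditions has a replicate check and no p-value is given.

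FGFs bind receptor tyrosine kinases of the FGFR family together with heparan sulfate, and in the mammary gland Fgf7 and Fgf10 are known as stromal ligands for the epithelial form of Fgfr2, which is needed for branching of the ducts. IGF1 and IGF2 act through Igf1r, while the IGF-binding proteins hold IGFs outside the cell and either block or release them, and Igf2r carries IGF2 to the lysosome. PDGFs act through Pdgfra and Pdgfrb, which are typical of fibroblasts, pericytes and smooth muscle.

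Total depth was 44462275 counts for control and 53487087 for TNF-α. Libraries were scaled by the TMM method of edgeR, and log2 ratios (TNF-α over control) were taken from depth-scaled counts (CPM) with a prior count of 2, so that 1 stands for a doubling and −1 for a halving. Ratios were read where both libraries together held at least 10 counts, which 20771 genes did, and a gene is called higher or lower here when its ratio passed 2-fold. Each ratio has a 95% Clopper-Pearson interval from its counts. PCR copies were not told apart by molecular identifiers, so these intervals cover counting error only and leave out the spread between cultures. Odd counts were scarce among low genes, with 618 genes at 1 count against 2172 at 2 counts in control, a pattern of read ends counted singly. Where a ratio is printed below and its interval took in 0 only from halved counts, that halved interval or its end is given. Levels of different genes are compared as RPKM, CPM divided by the summed exon length in kilobases. Because RNA came from whole cultures, fewer cells of a type and less RNA per cell cannot be told apart. Basal markers were abundant in both libraries, with Krt14 at 229766 and 259922 counts (log2 ratio −0.08). The basal list of 11 genes summed to 12772 CPM in control and 11985 CPM in TNF-α. Its ratios ran from −1.19 for Oxtr to 0.31 for Krt17, with a median of 0.03. By flow cytometry, the paper found mostly luminal cells in control colonies of its co-culture experiment, and a larger basal share with TNF-α. The colonies are therefore not read here as purely basal.

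Of the 50 genes, 38 had at least 10 counts and 12 did not. Among the 38, TNF-α cultures had 5 above 2-fold, namely Fgf7, Fgfbp1, Igfbp7, Fgf13 and Fgf14, and 2 more than 2-fold down, namely Fgf12 and Fgfr4. These are 13.2% and 5.26% of the 38, beside 8.56% higher and 6.62% lower among all 20771 genes compared. The higher share includes Fgf14, with 2 and 12 counts, which reached the 10-count minimum through the TNF-α library alone. The other 31 lay between −0.93 and 0.88. Among the 30 family genes with at least 100 counts, 4 were higher and 0 lower, beside 4.77% and 3.59% of the 15122 genes with that many counts. The median log2 ratio was 0.15 over the 38 genes and 0.0038 over all genes compared. By sign, 22 of the 38 lay above 0 and 16 below, and 50.6% of all genes compared lay above 0. The counting interval lay above 0 for 19 genes, below 0 for 11 and held 0 for 8. From halved counts these became 16, 9 and 13, since the intervals of Fgf11, Fgf14, Fgfr4, Igf1r and Fgfr1op2 then took in 0. The plot of ratios against level shows most of the families inside the cloud of all genes.

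**Figure D1:**
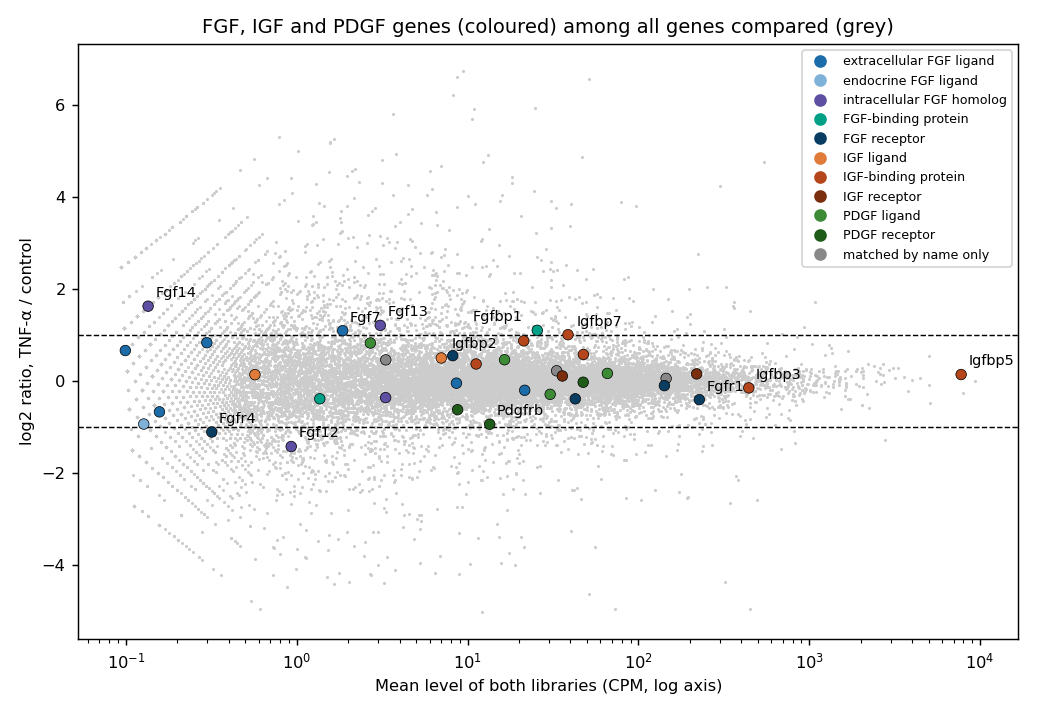
Log2 ratio, TNF-α over control (y axis), against the mean level of both libraries in CPM (x axis, log scale) for the 38 family genes, coloured by class, and all 20771 genes compared (grey). Dashed lines mark 2-fold. Fgf14, Fgf13, Fgfbp1, Fgf7 and Igfbp7 lie above the upper line, Fgf12 and Fgfr4 below the lower one, and Igfbp5 stands at the far right near 0.

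The 250 bases upstream of the RefSeq start are shown for 4 genes on GRCm38.p6, namely the 3 secreted factors that were more than 2-fold higher with at least 100 counts and, for contrast, Igfbp5, the most abundant gene of all 50 and nearly level. The Fgf7 window is chr2:126034408-126034657 on the plus strand. The windows of the other 3 lie on the minus strand, for Fgfbp1 at chr5:43981800-43982049, for Igfbp7 at chr5:77408046-77408295 and for Igfbp5 at chr1:72874866-72875115. Sequences run 5′ to 3′ and capitals mark motif matches.
Fgf7: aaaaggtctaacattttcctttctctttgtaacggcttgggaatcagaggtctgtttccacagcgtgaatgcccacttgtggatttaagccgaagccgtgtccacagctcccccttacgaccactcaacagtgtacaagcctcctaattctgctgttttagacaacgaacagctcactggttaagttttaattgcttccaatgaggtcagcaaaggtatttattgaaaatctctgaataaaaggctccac
Fgfbp1: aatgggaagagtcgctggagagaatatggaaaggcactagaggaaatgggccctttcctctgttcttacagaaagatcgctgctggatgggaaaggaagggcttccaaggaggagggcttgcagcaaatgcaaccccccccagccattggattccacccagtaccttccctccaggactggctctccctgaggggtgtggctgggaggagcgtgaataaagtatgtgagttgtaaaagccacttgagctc
Igfbp7: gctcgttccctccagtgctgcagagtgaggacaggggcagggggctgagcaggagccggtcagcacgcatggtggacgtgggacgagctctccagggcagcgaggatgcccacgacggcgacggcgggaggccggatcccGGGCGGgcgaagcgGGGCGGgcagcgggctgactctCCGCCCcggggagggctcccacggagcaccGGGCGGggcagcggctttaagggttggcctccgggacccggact
Igfbp5: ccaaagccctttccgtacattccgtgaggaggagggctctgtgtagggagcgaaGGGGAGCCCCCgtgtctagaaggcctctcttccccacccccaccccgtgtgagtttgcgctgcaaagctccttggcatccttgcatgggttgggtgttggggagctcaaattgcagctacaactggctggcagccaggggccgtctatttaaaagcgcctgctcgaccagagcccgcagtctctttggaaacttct
Both strands were searched for the NF-κB consensus, the AP-1 site TGANTCA, the TATA box TATAAA and the GC box GGGCGG. None of these letters occurred in the Fgf7 or Fgfbp1 window. The Igfbp7 window held 4 GC boxes, whose first bases lay at −110, −96, −74 and −44 from the RefSeq start. The Igfbp5 window held overlapping NF-κB matches, with first bases at −196 and −195. A promoter was found for 38 of the 50 genes, in 51 windows. The NF-κB consensus occurred in 7 of the 51 windows, of 7 genes (Fgf13, Fgf18, Fgfbp3, Fgfr4, Igfbp5, Pdgfa and Pdgfc), and in 7.25% of all 32851 RefSeq promoter windows. AP-1 occurred in 4 of the 51, of 4 genes (Fgf12, Fgf13, Igf1 and Igfbp2), and in 6.75% of all. TATAAA occurred in 5 of the 51, of 5 genes (Fgf21, Fgfbp3, Igfbp4, Igfbp6 and Pdgfd), and in 12.4% of all. The GC box occurred in 28 of the 51, of 21 genes, and in 32.7% of all. The genes with an NF-κB match included 1 that was higher (Fgf13), 1 that was lower (Fgfr4) and 4 within 2-fold, besides Fgf18, which had 2 counts in all. A match describes the letters of the window and is not evidence of a bound site.

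Among the secreted FGF ligands, Fgf7 was the one that passed 2-fold. Fgf7, the keratinocyte growth factor, lies on chromosome 2 of GRCm38 from 126034658 to 126091185 and had 52 counts in control and 136 in TNF-α, a log2 ratio of 1.10 (95% interval 0.66 to 1.62, or 0.46 to 1.84 from halved counts). Its level stayed low, at 0.359 RPKM in control and 0.785 in TNF-α, ranks 16228 and 14390 of the 20771 genes. Most secreted FGF message came from Fgf1, the ligand that binds every FGF receptor, with 68.3% of the class's summed RPKM in control and 62.4% in TNF-α. Fgf1 had 1028 and 1075 counts, a log2 ratio of −0.19. Fgf2, the basic FGF stored in matrix, had 389 and 453 counts and a ratio of −0.04 whose interval of −0.24 to 0.16 held 0, and 640 of its exon bases overlap Nudt6 on the opposite strand, with 209 and 263 counts. The summed secreted ligand level was 7.27 RPKM in control and 6.95 in TNF-α.

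The remaining secreted ligands were close to the limit of counting. Fgf20 had 9 counts in control and 21 in TNF-α (0.84, interval −0.22 to 2.27), Fgf17 had 3 and 7, and Fgf22 had 9 and 6, and all 3 intervals held 0. Fgf20 shares 202 exon bases with Micu3 on the opposite strand, which had 332 and 377 counts. Fgf10, which shares its receptor with Fgf7, had 4 counts in control and 2 in TNF-α. Fgf5, Fgf9 and Fgf18 each had 2 counts in control and 0 in TNF-α, Fgf8 had 0 and 2, and Fgf3, Fgf4, Fgf6 and Fgf16 had 0 in both. Fgf3 and Fgf4 lie 2931 bases apart on chromosome 7 beside Fgf15. A count of 0 allows up to 0.0673 CPM in control and 0.0562 CPM in TNF-α, the value of 3 counts. Of the endocrine FGFs, which act at a distance with Klotho proteins, Fgf21 had 8 counts in control and 4 in TNF-α and Fgf15 and Fgf23 had 0 in both.

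**Figure D2:**
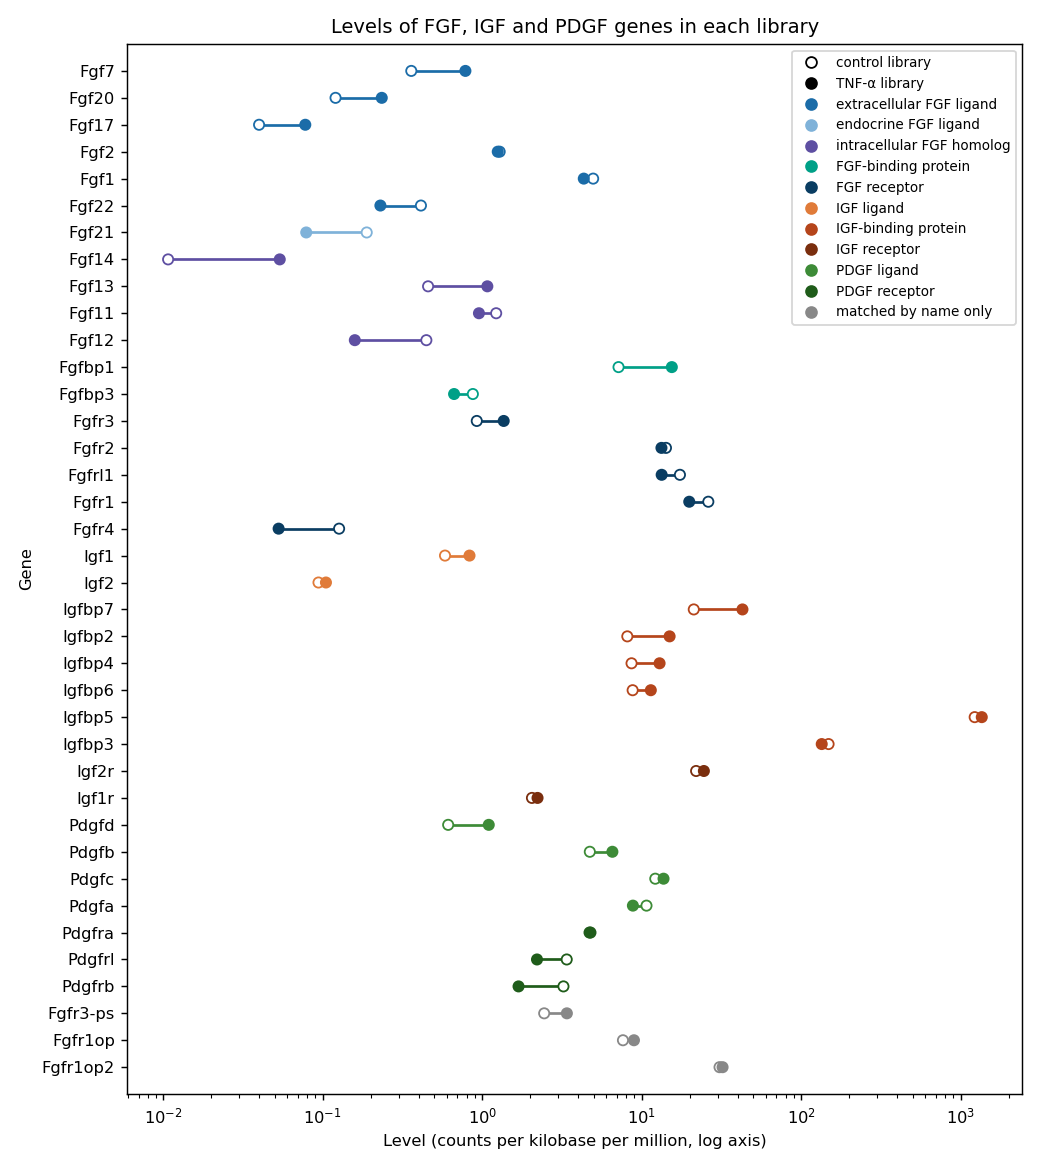
Level in RPKM (log axis) of the family genes in each of the 2 libraries, 1 point a library, grouped by class. Igfbp5 leads at 1224.5 and 1356.5 RPKM, Igfbp3 follows, and Fgf7 stays under 1 RPKM in both libraries.

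The 4 intracellular FGF homologs spread in both directions. Fgf11 to Fgf14 are FGFs by sequence, but are kept inside the cell, where they bind voltage-gated sodium channels rather than act as secreted ligands. Fgf13 on the X chromosome had 82 counts in control and 231 in TNF-α, a log2 ratio of 1.22 (0.86 to 1.62). Fgf12 on chromosome 16 went the other way, with 61 and 26 counts and a ratio of −1.42 (−2.21 to −0.81), the lowest among the 38. Fgf11 had 166 and 155 counts and a ratio of −0.35 (−0.68 to −0.03, or −0.82 to 0.11 from halved counts). Fgf14 had 2 counts in control and 12 in TNF-α, and its ratio of 1.63 (0.16 to 5.53) had an interval from halved counts that reached −0.72. It passed the minimum of 10 counts through the TNF-α library alone, and Gm28932, which overlaps 220 of its exon bases on the opposite strand, had 0 and 4 counts. The leading homolog differed between the libraries, Fgf11 with 57.2% of the class's RPKM in control and Fgf13 with 48.0% in TNF-α.

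Fgfbp1, a secreted carrier that frees FGFs such as Fgf1 and Fgf2 from heparan sulfate in the matrix, was higher with TNF-α. It lies on chromosome 5 from 43978858 to 43981779 and had 722 counts in control and 1866 in TNF-α, 7.16 and 15.5 RPKM, a log2 ratio of 1.11 (0.99 to 1.24), or 2.16-fold. In level it moved from rank 6076 to rank 3553 of the 20771 genes. Fgfbp3, its relative, had 69 and 63 counts and a ratio of −0.38 (−0.91 to 0.12). The carrier stood at about the RPKM of all secreted FGF ligands together in control and above it in TNF-α.

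Fgfr1 and Fgfr2 were the main FGF receptor kinases in both libraries. Fgfr1 had 11518 counts in control and 10471 in TNF-α, 26.2 and 19.9 RPKM, a log2 ratio of −0.40 (−0.44 to −0.36). Fgfr2, the receptor for Fgf7, had 6535 and 7331 counts, 14.2 and 13.3 RPKM, a ratio of −0.09. Its deposited gene model runs from 130162451 to 133123350 on chromosome 7 and shares 314 exon bases with Ctbp2 on the same strand, which had 1967 and 3290 counts, and reads on shared bases cannot be told apart. Fgfrl1, a member without a kinase domain, had 2154 and 1981 counts, a ratio of −0.38. Fgfr3 was the receptor of this class above 0, with 295 and 521 counts, 0.925 and 1.36 RPKM, and a ratio of 0.56 (0.35 to 0.77). It overlaps G630022F23Rik on the opposite strand, which had 38 and 75 counts. Fgfr4 was near the limit, with 20 counts in control and 10 in TNF-α and a ratio of −1.10 (−2.52 to −0.10). Its interval from halved counts reached 0.42. The 5 receptors summed to 58.8 RPKM in control and 47.9 in TNF-α, a log2 ratio of −0.27.

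The IGF side was dominated by binding proteins. Igfbp5, an abundant secreted IGF carrier of the mammary gland, had 327764 counts in control and 434751 in TNF-α, 1224.5 and 1356.5 RPKM, ranks 27 and 26 of the 20771 genes compared. It made 86.2% of the summed IGFBP level in each library, and its log2 ratio was 0.15. Igfbp3, the main IGF carrier of plasma, came next with 20721 and 22474 counts, 148.5 and 134.6 RPKM, and a ratio of −0.14. Its share of the class was 10.5% in control and 8.55% in TNF-α. The 2 binding proteins at the top thus had ratios near 0, and the larger ratios belonged to less abundant ones.

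Igfbp7, a secreted matrix protein with weak affinity for IGFs, was the binding protein that passed 2-fold. It lies on chromosome 5 from 77349240 to 77408041 and had 1143 counts in control and 2764 in TNF-α, 21.2 and 42.8 RPKM, a log2 ratio of 1.01 (0.91 to 1.11). It shares 85 exon bases with Polr2b on the opposite strand, which had 5392 and 7035 counts. Igfbp2 was just inside the threshold with 669 and 1475 counts and a ratio of 0.88 (0.75 to 1.01). Igfbp4, an inhibitory carrier released by the protease Pappa, had 1700 and 3051 counts (0.58), and Igfbp6, which prefers IGF2, had 435 and 677 (0.38). Igfbp1, a liver carrier, had 4 counts in control and 2 in TNF-α. Of the 6 compared, 5 lay above 0. Igfbp2 and Igfbp5 are neighbours 5458 bases apart on chromosome 1, with ratios of 0.88 and 0.15. Igfbp1 and Igfbp3 lie 3540 bases apart on chromosome 11.

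Both IGF ligands were low beside their binding proteins. Igf1 had 258 counts in control and 440 in TNF-α, 0.585 and 0.833 RPKM, a log2 ratio of 0.51 (0.29 to 0.74). Igf2 had 24 and 32 counts and a ratio of 0.14 (−0.65 to 0.98). The 2 ligands summed to 0.679 RPKM in control and 0.937 in TNF-α, against 1420 and 1573 RPKM for the binding proteins. Igf1r, the signaling receptor, had 1535 and 1992 counts, 2.05 and 2.22 RPKM (0.12, interval from halved counts −0.02 to 0.25). Igf2r, the clearance receptor, had 9230 and 12361 counts, 21.9 and 24.5 RPKM (0.16). Receptors of both kinds were thus within 1.5-fold between libraries, with Igf2r holding 91.5% and 91.7% of their summed RPKM.

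**Figure D3:**
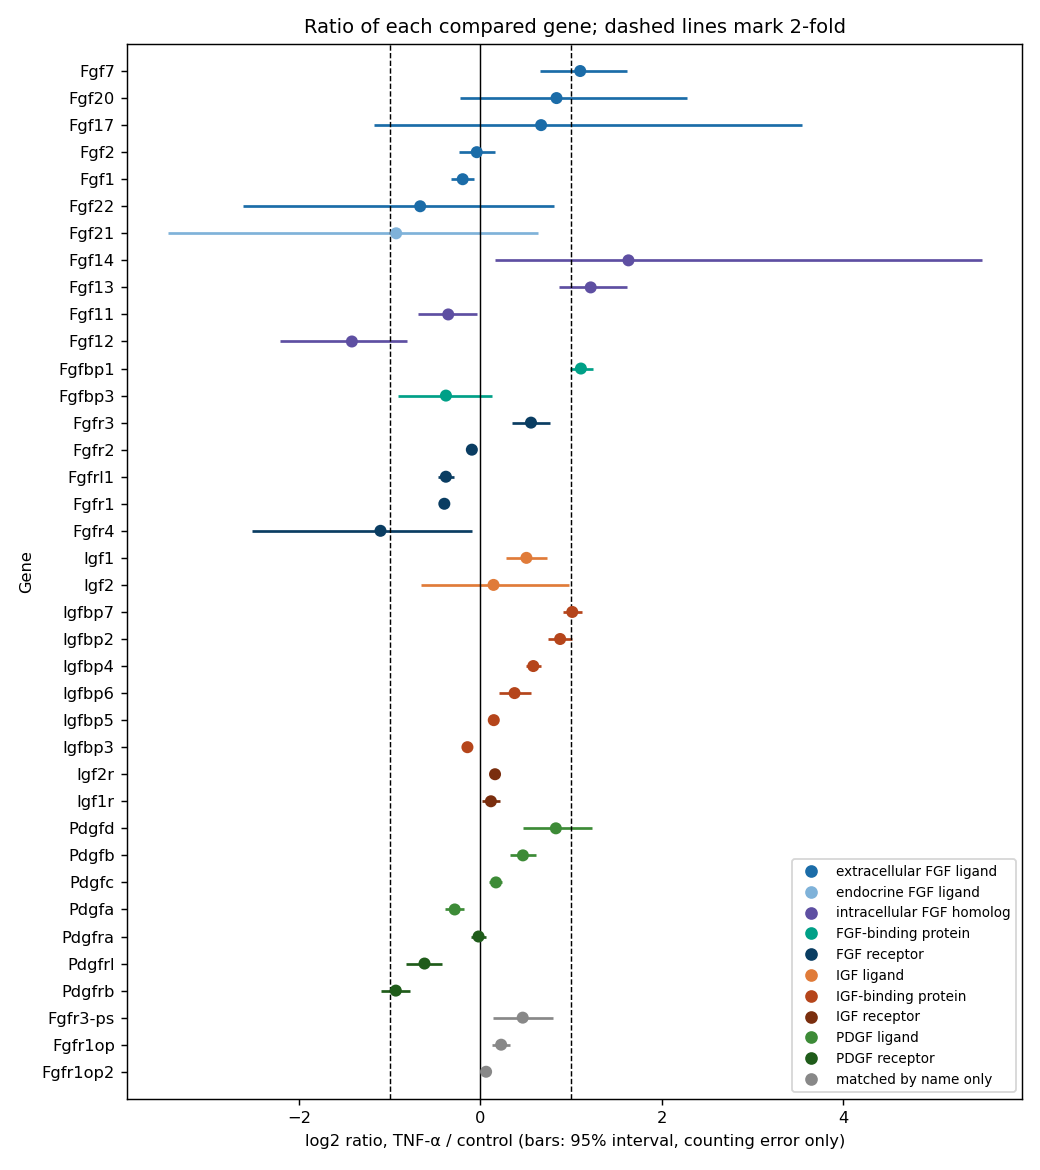
Log2 ratio, TNF-α over control, for the family genes compared, ordered by class, with 95% Clopper-Pearson intervals for counting error as bars. Dashed lines mark 2-fold. Fgf7, Fgfbp1, Igfbp7, Fgf13 and Fgf14 lie past the upper line, the intervals are widest for Fgf14, Fgf17, Fgf20, Fgf21, Fgf22 and Fgfr4, and the 3 PDGF receptors lie at or below 0.

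No PDGF ligand or receptor passed 2-fold. Pdgfc, which is activated outside the cell by proteases, led the ligands with 2760 counts in control and 3723 in TNF-α (0.17), and Pdgfa had 1490 and 1466 (−0.28). Pdgfb, the ligand that recruits pericytes, had 615 and 1020 counts and a log2 ratio of 0.47 (0.32 to 0.62). Pdgfd, which binds Pdgfrb, had the fewest counts and the largest ratio of the 4, 86 and 185 counts and 0.83 (0.47 to 1.23). The 4 ligands summed to 28.2 RPKM in control and 30.2 in TNF-α. Pdgfa shares 813 exon bases with 6330403L08Rik on the opposite strand, which had 384 and 378 counts, and Pdgfc shares 147 with Gm16000, which had 1025 and 1460.

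The PDGF receptors were at or below the control level. Pdgfra had 2133 counts in control and 2519 in TNF-α, a log2 ratio of −0.02 (−0.10 to 0.06). Pdgfrb was just inside the threshold, with 789 and 494 counts, 3.23 and 1.69 RPKM, and a ratio of −0.93 (−1.10 to −0.77). Pdgfrl, a receptor-like protein without a kinase domain, had 472 and 368 counts and a ratio of −0.62. The 3 summed to 11.4 RPKM in control and 8.61 in TNF-α. Pdgfrb and its ligand Pdgfd thus differed from control in opposite directions.

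Markers of cells that usually make these ligands and receptors were checked beside them. Of all genes compared, 8.56% were more than 2-fold higher, 6.62% were more than 2-fold lower and 50.6% lay above 0. Of 12 fibroblast markers, 11 had at least 10 counts and Tcf21 was at 0 in both libraries. The list summed to 483 CPM in control and 507 in TNF-α, with Col1a2 and Col1a1 most abundant. Col1a2 (207 and 229 CPM), Col1a1 (114 and 119) and Col3a1 (126 and 79.6) held most of these sums, so the sums mostly read collagens. In the list, 3 genes were more than 2-fold higher. These were Dpt with 20 and 622 counts (4.58), Fbln1 with 91 and 317 (1.52) and Dcn with 184 and 582 (1.39). Of the 11, 9 lay above 0, among them Lum, Mfap5 and Pi16 with intervals that held 0. Col3a1 had 5628 and 4250 counts (−0.66), and Fap had 16 and 14 (−0.40), with an interval that held 0. The part of these cells in the Fgf7 difference was not tested. Of 7 pericyte and vascular smooth muscle markers, 6 had at least 10 counts. The list summed to 196 CPM in control and 149 in TNF-α, with Notch3 and Des most abundant. Notch3 alone held 162 and 119 CPM of these sums, so the sums mostly read that 1 gene. Abcc9 with 106 and 52 counts (−1.25) and Kcnj8 with 20 and 10 (−1.10, interval from halved counts −3.16 to 0.42) were more than 2-fold lower. Cspg4, with 314 and 438 counts (0.22, interval from halved counts −0.08 to 0.53), was the 1 of the 6 above 0. The part of these cells in the Pdgfrb difference was not tested.

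Markers of further cell types were read in the same colonies, beside the same shares of all genes (8.56% higher, 6.62% lower and 50.6% above 0). The 11 luminal markers summed to 4456 CPM in control and 3564 in TNF-α, with Krt8 and Epcam most abundant, and 10 of the 11 lay below 0. Pgr (−1.54), Esr1 (−1.48) and Prlr (−1.15) were more than 2-fold lower, and so was Oxtr (−1.19) among the basal markers. Their part in the FGF receptor ratios was not tested. Endothelial markers summed to 8.55 and 7.74 CPM (Cdh5 and Pecam1 most abundant), leukocyte markers to 8.23 and 6.54 CPM (Lyz2 and Csf1r, with Cd3e at 0) and adipocyte markers to 9.85 and 3.34 CPM (Fabp4 and Lep, with Plin1 at 0). Of 6 adipocyte markers, 3 had at least 10 counts, and 2 of these were more than 2-fold lower. They were Lep with 127 counts in control and 10 in TNF-α (−3.66) and Pparg with 102 and 22 (−2.36). The endothelial marker Cldn5 was also more than 2-fold lower, with 16 and 2 counts (−2.35, interval −6.42 to −1.17). It passed the 10-count minimum through the control library alone.

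Genes that work around the ligands and receptors were read as lists. Of 28 heparan sulfate genes and FGF co-receptors compared, 4 were more than 2-fold higher and 0 lower, beside 8.56% and 6.62% of all genes compared, with a median of 0.11. Flrt2, a membrane protein that binds FGF receptors, had 210 counts in control and 688 in TNF-α (1.44, interval 1.23 to 1.68). Hs6st2, which adds the 6-O-sulfate of heparan sulfate, had 70 and 248 (1.54, interval 1.18 to 1.97). Hpse, the enzyme that cuts heparan sulfate chains, had 2 and 12 counts (1.63, interval 0.16 to 5.53, or −0.72 to 7.85 from halved counts) and passed the 10-count minimum through the TNF-α library alone. Ndst3, a sulfotransferase, had 8 and 24 counts (1.15), with an interval from halved counts of −0.40 to 3.41. With a minimum of 1 CPM, Flrt2 and Hs6st2 were the 2 left. The abundant syndecans Sdc4 and Sdc1 had ratios of 0.21 and −0.02, and the lowest of the list was Flrt1 at −0.47.

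Of 14 further IGF axis genes compared, 1 was higher and 3 lower, beside the same 8.56% and 6.62% of all genes, with a median of −0.11. Igfals, which binds IGF and Igfbp3 or Igfbp5 into a ternary complex in blood, had 32 counts in control and 193 in TNF-α, a log2 ratio of 2.27 (1.79 to 2.92). Pappa2, a protease that cuts Igfbp3 and Igfbp5, had 79 and 22 counts and a ratio of −2.0 (−2.86 to −1.41). Irs1, the docking protein of the insulin and IGF receptors, had 5917 and 2981 counts and a ratio of −1.25 (−1.31 to −1.19). Htra1, a secreted protease that also cuts IGF-binding proteins, had 3051 and 1799 counts (−1.02), and lay at −0.96 when corrected for base composition and exon length. Irs1 and Htra1 were abundant enough that counting error was small, and Igfals was rare.

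Of 9 genes that process or bind PDGFs, 2 were higher and 0 lower, again beside 8.56% and 6.62% of all genes, with a median of 0.14. Both were proprotein convertases, Pcsk6 with 233 and 596 counts (1.09) and Pcsk5 with 459 and 1116 (1.02), while Furin, the convertase with the most counts, had 3538 and 2825 (−0.58). Downstream of the receptors, 0 of 17 adaptors passed 2-fold in either direction, again beside 8.56% and 6.62% of all genes. Their ratios ran from −0.69 for Plcg2 to 0.26 for Cblb, with a median of −0.10. Of 16 targets and feedback inhibitors of FGF and ERK signaling, Egr1 alone passed, downward, beside 6.62% of all genes lower and 8.56% higher. Egr1 had 4396 and 2533 counts and a ratio of −1.05, and the list median was −0.11. Corrected for base composition and exon length, Egr1 lay at −0.93. The highest of that list was Etv4 at 0.39. None of the 12 genes on the FOXO list passed 2-fold, beside the same shares of all genes. FOXO factors are held back by IGF and AKT signaling. The list holds the factor genes Foxo1 (0.23), Foxo3 (−0.42) and Foxo4 (−0.45) besides targets. Its ratios ran from −0.52 for Sesn3 to 0.42 for Ccng2 with a median of −0.26.

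**Figure D4:**
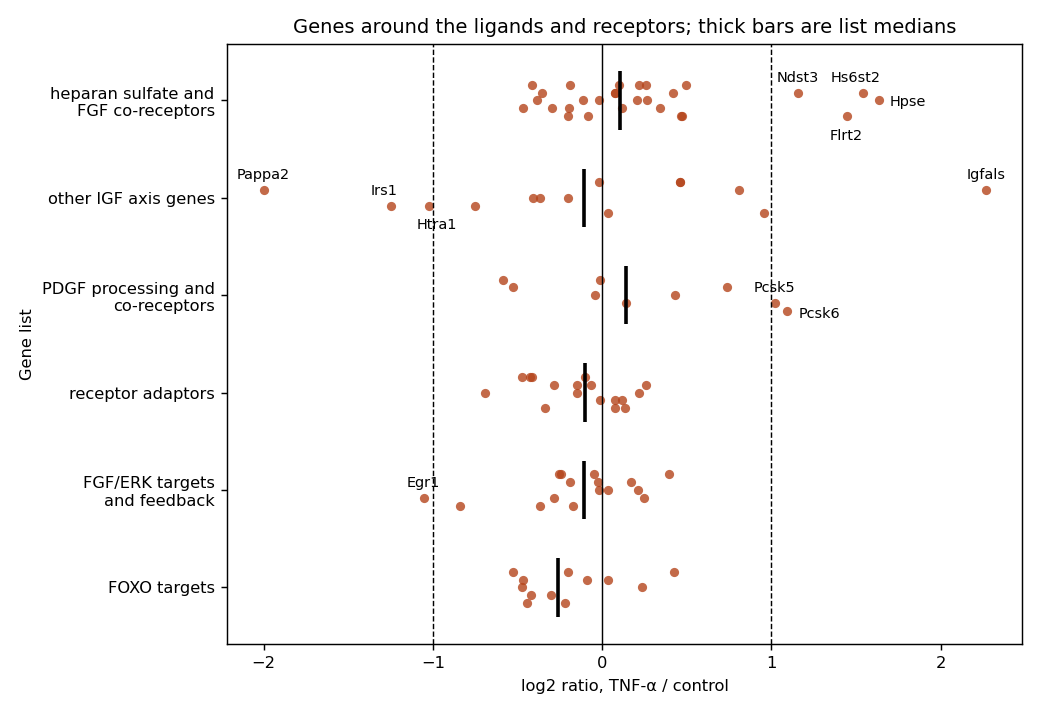
Log2 ratio, TNF-α over control, for each gene of 6 lists around the ligands and receptors, 1 point a gene, with the list median as a thick bar and 2-fold as dashed lines. Igfals and Pappa2 lie farthest out, and all 17 receptor adaptors and all 12 genes of the FOXO list lie between the dashed lines.

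The 3 genes matched by symbol alone were near the control level. Fgfr1op, which encodes a centrosomal protein, had 1363 and 1913 counts (0.23), and Fgfr1op2, named as a fusion partner of FGFR1, had 6335 and 7924 (0.06), with an interval from halved counts that began at −0.0047. The pseudogene Fgfr3-ps had 124 and 206 counts (0.47), but all 1137 of its bases lie within exons of Nvl on the opposite strand, which had 4599 and 5676 counts, so its reads cannot be told apart from those of Nvl without strand.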

How the data were processed

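RNA-seq libraries of 3D cultures of mammary basal cells, 1 control and 1 with TNF-α, were analysed. The authors deposited raw read counts per gene, not normalized, with exon coordinates and summed exon length. The submitters' processing notes name GRCm38 and mm10, and 90.9% of 47240 names shared with GENCODE M21 had the same position. The aligner, counter, annotation and use of strand are not given in the sources used here. Library sizes were scaled with edgeR 4.0.16 (R 4.3.3, TMM). Log2 ratios of CPM (prior count 2) were computed for genes with at least 10 counts, and 2-fold set the calls, since 1 library a condition leaves no residual degrees of freedom for edgeR's quasi-likelihood test. A count of 10 is worth 0.224 CPM in control and 0.187 in TNF-α. Intervals are Clopper-Pearson (scipy 1.17.1). The ratios were tested on simulated data with independent counts. That simulation held neither paired read ends nor spread between cultures, so it cannot show how the intervals perform under either. The rule for the family genes used symbols only, but it and the lists were set with earlier results of these data known. Every family gene was named. Of each pathway list, genes past 2-fold and the highest and lowest were named, and of each marker list the 2 most abundant, with others (among them the fibroblast and pericyte markers past 2-fold, Sdc4, Sdc1, Furin and overlapping genes) chosen after their values were seen. Promoter windows came from RefSeq. Alternatives were other scalings (DESeq2 1.42.0 size factors, upper quartile, total counts), filters, prior counts, folds and halved counts.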

Additional observations from a re-analysis of the deposited data

How the results depend on the processing

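The 4 genes Fgf7, Fgfbp1, Igfbp7 and Fgf13 passed 2-fold under each scaling, filter, prior count and the halved counts, and after a correction for GC content and length. The count of 5 family genes higher became 9 of 38 at a fold of 1.5, where 15.5% of all genes were higher. It was 3 without the genes whose exons overlap another gene, which removes Igfbp7 and Fgf14. The count of 2 lower became 5 of 44 with no filter, where 11.1% of all genes were lower. At a fold of 1.5 it became 6 of 38, beside 13.7% of all genes. It was 1 with a minimum of 1 CPM, with a prior count of 5 or with halved counts, where Fgf12 was left. It was 3 with a prior count of 0.5, which adds Fgf21, and after the GC and length correction Fgf21 took the place of Fgfr4 (−0.97). Heparan sulfate genes higher went from 4 to 2 with a minimum of 1 CPM. Other IGF axis genes higher went from 1 to 2 with no filter and to 3 at a fold of 1.5. Receptor adaptors lower went from 0 to 1 at a fold of 1.5. ERK targets lower went from 1 to 0 after the GC and length correction and to 2 at a fold of 1.5. The same correction took other IGF axis genes lower from 3 to 2, without Htra1.

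Of 331 values of single family genes under an alternative, 325 moved by less than their counting interval, 6 moved by more, and 0 called values changed sign. The GC and length correction accounted for 4 of the 6 (Fgfr1 −0.27, Fgfr2 −0.04, Igf2r 0.22 and Igfbp5 0.18). The median of the family genes ranged from 0.09 with no filter to 0.20 after that correction. The GC and length correction (lowess span 0.3), removal of the overlapping genes or of the 3 genes matched by symbol, and, for lists and medians, halved counts and the lower fold were chosen after seeing the data. No paired analysis was possible because there was 1 library a condition, which also left no replicate to drop. Depth limits Fgf14, Fgf17, Fgf20, Fgf21, Fgf22, Fgfr4 and Igf2 most, and their intervals from halved counts held 0.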
